A study of Rattus norvegicus with 28 samples.

Results

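The 7 genes Ly6i, Matn1, Nxpe2, Dph6, Mpv17l, Oacyl and Ang are lower in the kidneys of SBH/y rats than in those of SBN/y rats, with both kidneys in place and with 1 kidney left. They were chosen by name for large falls between the strains in the group means of these same arrays, so their strain differences are given as a description with no test. The 7 genes are read by 9 of the 31042 probe sets tested, with 2 probe sets each for Nxpe2 and Mpv17l, and they are 7 of 14217 genes with a name. The name of the set holds on every array for 8 of the 9 probe sets; in the first probe set of Nxpe2, SBN/y and SBH/y arrays overlapped while both kidneys were present.

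RNA from whole frozen kidneys of female rats was hybridised to 1-colour Affymetrix expression arrays, 1 array per sample. Both strains are inbred Sabra rats: SBN/y is the line that resists high blood pressure on salt, while SBH/y becomes hypertensive and is prone to protein loss in the urine. Each strain was studied after a sham operation, with 2 kidneys in place, and after uninephrectomy, the surgical removal of 1 kidney, with 7 arrays in each of the 4 groups. All animals ate standard chow, and kidneys were taken when they were 5 months old, which was 4 months after surgery. The labels name no transgene or drug in any group. Whether the arrays of a group stand for separate animals is not said in the labels, so a p-value here reflects spread among samples that may be technical in part. As each strain is 1 inbred line, everything that differs between the lines goes with the label.

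Angiogenin, the product of Ang, is a small secreted ribonuclease of the RNase A family that is known to promote vessel growth and to cleave transfer RNAs under stress. Matrilin-1, from Matn1, is a secreted matrix protein of cartilage. Ly6i belongs to the Ly6 family of small surface proteins held in the membrane by a lipid anchor, many of them found on blood cells, and Nxpe2 belongs to a small family named for neurexophilin-like and esterase-like domains. Dph6 encodes the ligase that completes diphthamide, a modified residue of the translation factor Eef2 and the target of diphtheria toxin. Mpv17l encodes a membrane protein related to Mpv17 and linked to the handling of reactive oxygen species, and Oacyl a membrane protein related to O-acyltransferases.

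The values are log2 values from RMA, which places all arrays on 1 scale, with array medians of 5.72 to 5.77 and correlations of 0.985 to 0.997 between arrays. A difference of 1 is therefore 2-fold. Beside a group mean ± gives the SD of 7 arrays, and beside a difference it gives the standard error from limma. In whole tissue, fewer cells of a type and less RNA per cell cannot be told apart. Each value is read through short fixed probes, and with no probe or strain sequence used here, less RNA and poorer binding to the probes cannot be told apart either. Signal over background was not measured. In SBH/y the group means of Nxpe2 and Ang in both states, and of Matn1 after uninephrectomy, lay below the lowest array median. So did the SBN/y means of the first Nxpe2 probe set with 2 kidneys (5.17) and of the second in both states (4.21 and 4.66). The folds of these genes are therefore those of the values and not exact folds of RNA.

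Array 2 of the SBN/y group with 2 kidneys stood apart. It had the lowest Ly6i value of its group at 10.21, the highest Matn1 value at 9.63 and the lowest Nxpe2 value at 3.70. Only the Ly6i value passed the outlier check given below, and array 5 of the group read 9.38 for Matn1 and 3.89 for Nxpe2. On array 2 the mean level of neutrophil markers was 4.37 against 3.58 to 3.75 on the other 6 arrays. That of collecting duct markers was 9.50 against 9.19 to 9.34, and that of podocyte markers 8.29 against 7.95 to 8.09. Lower than on the other 6 arrays were the markers of the distal tubule (8.49 against 8.73 to 8.88), of red blood cells (8.39 against 8.63 to 9.44) and of B and plasma cells (4.63 against 4.72 to 4.87). Markers of macrophages (7.15 against 6.88 to 7.06) and of the thick ascending limb (10.115 against 9.918 to 10.105) were also higher on array 2. Those of the adrenal gland (3.77 against 3.88 to 3.95) and of skeletal muscle (3.513 against 3.514 to 3.653) were also lower. The remaining lists lay within the range of the other 6 arrays. The part of these markers in the values of the 7 genes was not tested. Some of the values that this array moved are given with and without it. By mean correlation with its own group, the array least like the others was array 6 of SBH/y with 2 kidneys. Its value was 0.9942, against 0.9949 for array 2 of SBN/y with 2 kidneys.

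Ang lies on chromosome 15 of the RefSeq assembly GRCr8 and has 2 start sites there. The 250 bases before each of them, on the plus strand, are shown because the neighbouring gene Rnase4, which was lower in the same strain, starts just after the first. Capitals mark matches on either strand to the letters TATAA for the TATA box, CCAAT for the box of that name and GGGCGG for the GC box.
Ang first start, chr15:26785983-26786232: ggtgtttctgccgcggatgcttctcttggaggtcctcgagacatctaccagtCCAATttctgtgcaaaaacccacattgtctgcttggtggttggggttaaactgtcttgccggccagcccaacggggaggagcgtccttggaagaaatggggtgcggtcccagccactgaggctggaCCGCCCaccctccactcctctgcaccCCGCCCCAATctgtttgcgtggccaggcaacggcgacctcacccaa
Ang second start, chr15:26790990-26791239: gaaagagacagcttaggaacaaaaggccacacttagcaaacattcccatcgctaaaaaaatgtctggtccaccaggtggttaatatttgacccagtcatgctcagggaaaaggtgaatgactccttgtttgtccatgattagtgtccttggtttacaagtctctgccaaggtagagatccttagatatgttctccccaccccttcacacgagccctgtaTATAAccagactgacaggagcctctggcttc
The first window holds 2 CCAAT matches and 2 GC box matches, of which the last pair overlap each other, and the second holds 1 TATA match 31 bases before the start. Rnase4 starts 54 bases after the first Ang start, so its window shares 196 bases with that one, and the second Ang start lies 5007 bases downstream of the first. Of 33469 windows of this length, 24.0% hold the TATA letters, 34.0% the CCAAT letters and 30.5% the GC box letters. RefSeq's table gave windows for 5 of the 7 genes, 8 windows in all; those of Ly6i and Dph6 held none of the 3 motifs.

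Ang itself read 6.68, 6.97 and 7.50 as the lowest, median and highest value on the SBN/y arrays with 2 kidneys, and 6.22, 6.72 and 7.14 after uninephrectomy. On the SBH/y arrays the values were 4.56, 5.13 and 5.62 with 2 kidneys and 4.65, 5.05 and 5.45 after uninephrectomy. Every SBH/y array lay below every SBN/y array in both states, with gaps of 1.06 and 0.76 between the nearest arrays. The group means of SBN/y were 7.04 ± 0.32 and 6.66 ± 0.32, those of SBH/y 5.13 ± 0.36 and 5.02 ± 0.32. Ang was thus 3.75-fold lower in SBH/y with 2 kidneys (-1.91 ± 0.16) and 3.1-fold lower with 1 kidney (-1.63 ± 0.16).

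Matn1 read 8.56, 8.73 and 9.63 (lowest, median, highest) in SBN/y with 2 kidneys and 8.53, 8.68 and 9.28 with 1 kidney. In SBH/y it read 5.73, 5.92 and 6.37 with 2 kidneys and 4.71, 5.58 and 6.03 with 1 kidney. The strains stood far apart in both states, and in SBN/y 2 arrays with 2 kidneys and 3 with 1 kidney lay above the rest of their group. The differences between the means were -2.94 ± 0.17 and -3.41 ± 0.17, or 7.67-fold and 10.6-fold lower in SBH/y. Without the SBN/y array that stood apart, the first was -2.82. The other markers of cartilage and bone, Acan, Col2a1, Comp, Ibsp and Bglap, had a mean level between 3.72 and 4.02 on all 28 arrays and 0 of the 5 were called in any of the 5 comparisons, but the collagen gene Col9a2 of cartilage matrix was lower in SBH/y in both states (-0.30 and -0.24). Their part in the Matn1 difference was not tested.

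Ly6i had the widest strain difference of the set. It read 10.21, 11.52 and 11.75 in SBN/y with 2 kidneys and 11.20, 11.47 and 11.56 with 1 kidney, against 7.51, 7.73 and 7.97 and then 7.37, 7.61 and 7.76 in SBH/y. Apart from the 1 low SBN/y array, each group was tight, with an SD of 0.12 to 0.15 in the other 3 groups. SBH/y was lower by 3.62 ± 0.14 on the log2 scale with 2 kidneys and by 3.85 ± 0.14 with 1 kidney, which is 12.3-fold and 14.5-fold. Leaving out the low array moved the first of these from -3.62 to -3.81. Markers of blood cells also differed between the strains. With 2 kidneys 4 of 6 macrophage markers were higher in SBH/y and 1 lower, and their mean level was 7.27 to 7.57 in SBH/y against 6.88 to 7.15 in SBN/y. The highest of these SBN/y levels was that of the low array, and the other 6 reached 7.06. With 1 kidney 5 of 6 macrophage markers were higher and 1 lower, at 7.33 to 7.61 against 6.95 to 7.14. T lymphocyte markers were lower in 4 of 5 cases with 2 kidneys (4.86 to 5.23 against 5.21 to 5.32) and in 0 of 5 with 1 kidney. The background for these counts is 11.8% of genes higher and 9.69% lower with 2 kidneys, and 14.9% and 11.9% with 1 kidney. The part of these cells in the Ly6i difference was not tested.

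Of the 7 genes, Nxpe2 varied most within a group. On SBN/y arrays 1 to 7 with 2 kidneys its first probe set read 7.03, 3.70, 5.80, 7.31, 3.89, 4.04 and 4.40, and with 1 kidney 6.26, 5.52, 6.28, 6.91, 7.12, 5.86 and 7.49. The SBH/y arrays read 3.43, 3.74 and 3.96 (lowest, median, highest) with 2 kidneys and 2.99, 3.28 and 3.53 with 1 kidney. With 2 kidneys, 3 SBN/y arrays were high, 1 lay between and 3 lay near or within the SBH/y range, and 5 of the 7 were above all SBH/y arrays. With 1 kidney all 7 SBN/y arrays were above all SBH/y arrays. The second probe set, read at 3.86, 4.04 and 4.95 in SBN/y with 2 kidneys and at 3.91, 4.61 and 5.22 with 1 kidney, ranked largely the same arrays high. Its SBH/y values lay between 3.39 and 3.85, so its strains did not overlap but the nearest arrays were only 0.04 and 0.06 apart. The strain difference was -1.49 ± 0.41 in the first probe set with 2 kidneys and -3.22 ± 0.41 with 1 kidney, against -0.56 ± 0.16 and -1.02 ± 0.16 in the second. When the SBN/y array that stood apart was left out, the differences with 2 kidneys were -1.74 and -0.62. Once the group means were taken out, the probe sets correlated across the 28 arrays with r = 0.76, and with 0.66 to 0.78 when any 1 array was left out.

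Dph6, the diphthamide ligase gene, was even across the SBN/y arrays, with an SD of 0.06 in both states. It read 9.37, 9.47 and 9.54 in SBN/y with 2 kidneys and 9.44, 9.47 and 9.59 with 1 kidney. In SBH/y it read 7.43, 7.63 and 7.74 with 2 kidneys and 7.20, 7.51 and 7.70 with 1 kidney. The strains were well separated, with gaps of 1.63 and 1.74 between the nearest arrays. The differences were -1.86 ± 0.06 and -2.06 ± 0.06, or 3.63-fold and 4.16-fold lower in SBH/y.

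Mpv17l, the Mpv17-like membrane protein gene, showed the same order of groups in both of its probe sets. The first read 10.53, 10.74 and 10.89 in SBN/y with 2 kidneys and 10.43, 10.65 and 10.80 with 1 kidney, and 8.77, 8.92 and 8.97 and then 8.58, 8.71 and 8.84 in SBH/y. The second read 8.76, 8.86 and 9.06 and then 8.53, 8.81 and 9.12 in SBN/y, and 7.45, 7.71 and 7.85 and then 6.74, 7.47 and 7.81 in SBH/y. The strains did not overlap in either. The first probe set was 3.58-fold and 3.85-fold lower in SBH/y (-1.84 ± 0.06 and -1.94 ± 0.06), the second 2.33-fold and 2.65-fold (-1.22 ± 0.11 and -1.41 ± 0.11). With group means taken out, the probe sets correlated with r = 0.46 over the 28 arrays (0.40 to 0.51 with any 1 array left out).

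Oacyl, the acyltransferase-like gene, had a smaller strain difference with 1 kidney than with 2. In SBN/y it read 7.59, 8.0 and 8.18 with 2 kidneys and 7.29, 7.55 and 8.10 with 1 kidney. In SBH/y it read 5.55, 5.89 and 6.42 with 2 kidneys and 6.12, 6.34 and 6.78 with 1 kidney. SBH/y arrays were always the lower, but the ranges of the strains came nearer to each other with 1 kidney. The strain difference was -2.01 ± 0.13 with 2 kidneys and -1.20 ± 0.13 with 1 kidney, or 4.03-fold and 2.3-fold.

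With 2 kidneys, 8 of the 9 probe sets had all SBH/y arrays below all SBN/y arrays, and with 1 kidney 9 of 9 did. Over all probe sets 3.17% and 4.21% were lower in SBH/y without overlap, and 8.31% and 10.3% were called lower. These shares are given as background only, since the strain differences chose the genes.

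**Figure D1:**
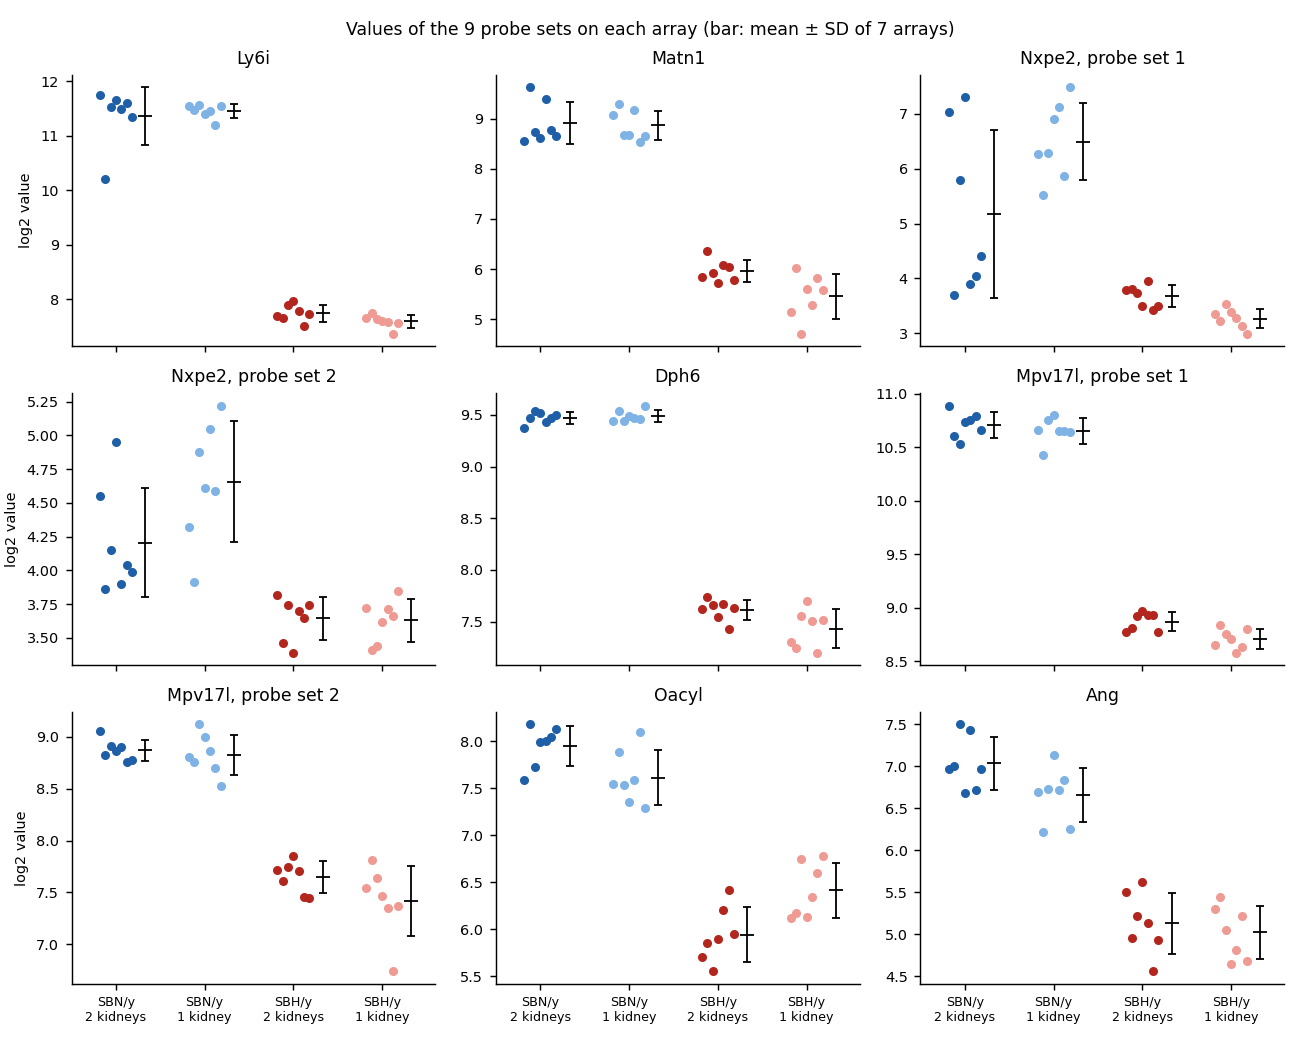
The log2 value (vertical axis, a separate scale for each panel) of each of the 9 probe sets is plotted for each array, by strain and number of kidneys, with the mean and SD of 7 arrays beside each group. SBN/y arrays lie above SBH/y arrays in every panel except the first probe set of Nxpe2, where SBN/y arrays with 2 kidneys run from 3.70 to 7.31.

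Uninephrectomy was tested in each strain with limma, with p-values adjusted over all 31042 probe sets by the Benjamini-Hochberg method and a threshold of 0.05. These contrasts use the arrays whose means chose the genes, so they are not fully independent of the choice. In SBN/y, 0 of the 9 probe sets were called, against 0.464% of all probe sets. In SBH/y, 1 of the 9 was called, against 8.24% of all probe sets. The interaction, the difference between these effects (SBH/y less SBN/y), was called for 1 of the 9, against 1.41% of all.

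Oacyl was the gene called in both of the latter tests. It rose after uninephrectomy in SBH/y, from 5.94 ± 0.29 to 6.41 ± 0.29, a difference of 0.47 ± 0.13 (limma adjusted p = 0.0236). In SBN/y it went from 7.95 ± 0.21 to 7.61 ± 0.29, a difference of -0.34 ± 0.13 that did not pass (limma adjusted p = 0.401). The interaction was 0.81 ± 0.19 (limma adjusted p = 0.0226), and it stayed between 0.75 and 0.89 and called when any 1 array was left out. The rise in SBH/y was 0.41 to 0.55 with any 1 array left out, and its call was lost (limma adjusted p 0.0544 to 0.0685) without SBH/y array 3, 6 or 7 with 1 kidney or array 1 or 3 with 2 kidneys. In the same contrast 4 of 5 T lymphocyte markers rose and 4 of 4 podocyte markers fell in SBH/y, where 4.85% of all genes rose and 5.51% fell, and 0 of either list was called in SBN/y. The mean level of the T lymphocyte markers in SBH/y was 4.86 to 5.23 with 2 kidneys and 5.11 to 5.48 with 1 kidney, that of the podocyte markers 8.03 to 8.14 and 7.41 to 7.93. Of the other marker lists, 2 of 4 endothelium markers fell in SBH/y, and 2 of 4 distal tubule markers rose while 1 fell. No further list had more than 1 call in either direction. The part of these cells in the Oacyl difference was not tested.

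The other 6 genes gave no call. Nxpe2 differed most in size: in SBN/y its first probe set was 1.32 ± 0.41 higher with 1 kidney (limma adjusted p = 0.184) and the second 0.45 ± 0.16 higher (limma adjusted p = 0.285). The SBN/y arrays with 1 kidney were all at 5.52 or more in the first probe set, where 4 of 7 with 2 kidneys were at 4.40 or less, but the 3 others reached as high as the arrays with 1 kidney. Leaving out SBN/y array 1 or 4 with 2 kidneys, both of them high, gave 1.63 and 1.68 with limma adjusted p = 0.0421 and 0.0278. Leaving out array 2, which stood apart, gave 1.08. The interaction of this probe set was -1.73 ± 0.58 (limma adjusted p = 0.15), and it passed at -2.04 and -2.09 without the same 2 high arrays.

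In SBH/y, Matn1 was lower with 1 kidney by 0.51 ± 0.17 (log2 difference -0.51, limma adjusted p = 0.0644), Dph6 by 0.18 ± 0.06 (-0.18, adjusted p = 0.0637) and the first probe set of Mpv17l by 0.16 ± 0.06 (-0.16, adjusted p = 0.085). These lie just outside the threshold, and each passed it when certain single arrays were left out: Matn1 without SBH/y array 2 or 6 with 1 kidney or the SBN/y array that stood apart, Dph6 without SBH/y array 3 or 4 with 1 kidney or 6 with 2 kidneys, and Mpv17l without SBH/y array 2 with 1 kidney. Without the dimmest 40% of probe sets Matn1 and Dph6 passed too (limma adjusted p = 0.047 and 0.041), and Dph6 passed with a trended and robust variance (limma adjusted p = 0.0446). Both genes also passed with the replicate number as a block in the model, with values given below. Matn1 values with 1 and with 2 kidneys overlapped, with 5 of 7 arrays with 1 kidney below the lowest with 2 kidneys. In SBN/y the same probe sets differed by -0.04, 0.02 and -0.06, and the first of these, that of Matn1, was 0.077 without the array that stood apart. The second probe set of Mpv17l (-0.23 ± 0.11, limma adjusted p = 0.207) and both of Nxpe2 (-0.40 ± 0.41 and -0.01 ± 0.16, limma adjusted p = 0.631 and 0.979) did not pass in SBH/y either, though the first of Nxpe2 passed with only the SBH/y arrays in the model (limma adjusted p = 0.0107). Ly6i and Ang differed by 0.08 ± 0.14 and -0.38 ± 0.16 in SBN/y and by -0.15 ± 0.14 and -0.11 ± 0.16 in SBH/y, with limma adjusted p of 0.453 or more. The sign of the first of these, that of Ly6i in SBN/y, turned to -0.11 without the low array.

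**Figure D2:**
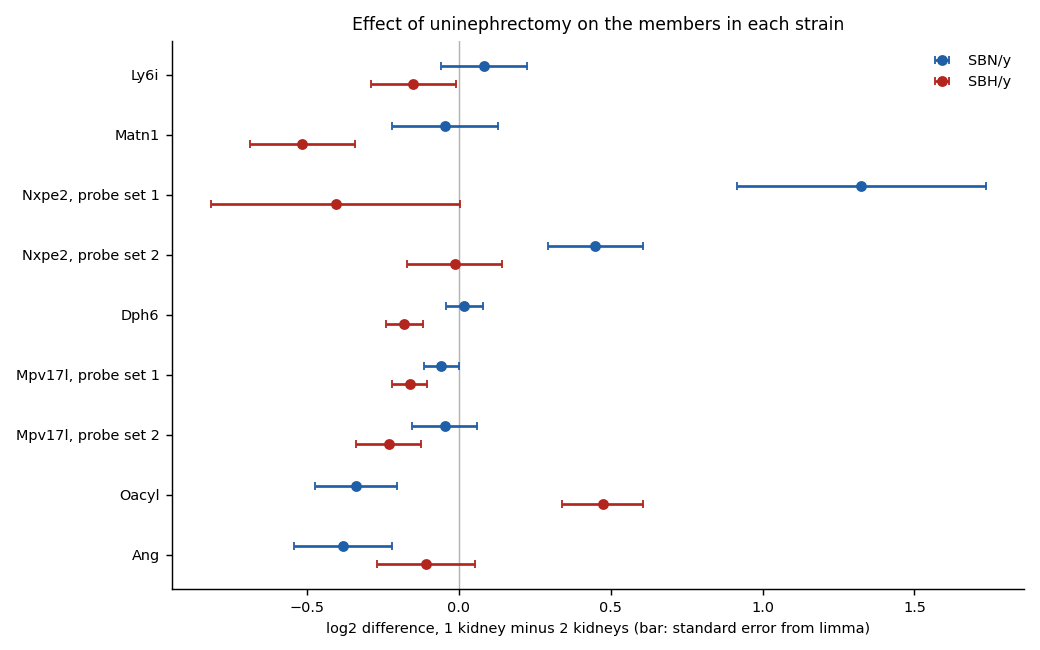
For each probe set the log2 difference between 1 kidney and 2 kidneys (horizontal axis) is plotted for SBN/y and SBH/y, with the standard error from limma as the bar. Oacyl lies at -0.34 in SBN/y and 0.47 in SBH/y, and the first probe set of Nxpe2 at 1.32 and -0.40 with the widest bars.

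The genes lie on 7 different chromosomes, and their nearest measured neighbours were examined, 5 on each side in the order of RefSeq's gene table, 70 genes in all. These genes were not part of the choice, so their strain differences were tested. With 2 kidneys 12 of the 70 (17.1%) were lower in SBH/y and 14 (20%) higher, against 9.69% and 11.8% of all genes. With 3 neighbours on each side 26.2% were lower with 2 kidneys. With 1 kidney 10 of the 70 (14.3%) were lower and 14 (20%) higher, against 11.9% and 14.9%. The median difference of the neighbours was -0.02 and 0.002, against -0.01 and 0.001 for all genes. Of the 70, 10 were lower in both states (14.3%, against 6.22% of all genes) and 6 were lower by at least 0.5 in both (8.57%, against 0.999%). The 6 are Rnase4, Nxpe4, Nxpe1, Ly6al, Bmerb1 and Atp8b1. In RefSeq's gene order the first 5 of them were the nearest measured neighbour of a member on 1 side. Atp8b1 fell short of 0.5 with 2 kidneys, at -0.47, when the SBN/y array that stood apart was left out. One neighbour, the lymphatic growth gene Ccbe1 beside Oacyl, was higher by at least 0.5 in both (0.64 ± 0.09 and 0.61 ± 0.09).

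Beside Ang, Rnase4, the RNase A family gene whose window overlaps the first Ang window printed above, read 8.90, 9.12 and 9.30 in SBN/y with 2 kidneys and 8.65, 8.96 and 9.19 with 1 kidney. In SBH/y it read 7.61, 7.71 and 8.02 and then 7.59, 7.79 and 7.88. As for Ang, no arrays of the strains overlapped. Rnase4 was lower in SBH/y, at -1.36 ± 0.08 with 2 kidneys (limma adjusted p = 1.07e-14) and -1.18 ± 0.08 with 1 kidney (limma adjusted p = 3.57e-13), and its second probe set gave -1.07 and -0.94. With group means taken out, Ang and Rnase4 correlated over the 28 arrays with r = 0.64 (0.59 to 0.69 with any 1 array left out), and Ang and the second Rnase4 probe set with r = 0.54. On the other side of Ang, Rnase12 differed by -0.02 ± 0.08 and -0.08 ± 0.08 (limma adjusted p = 0.91 and 0.578).

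**Figure D3:**
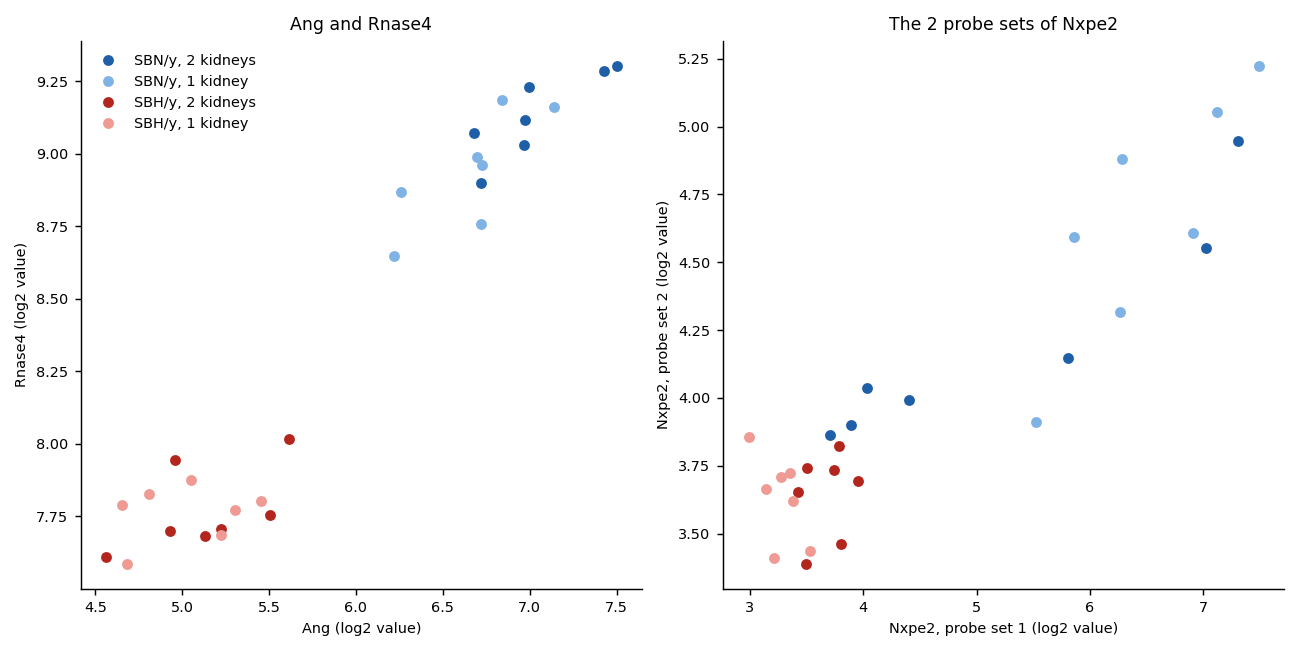
Each point is 1 of 28 arrays, coloured by group; the left panel plots the log2 value of Rnase4 against that of Ang, the right panel the second against the first probe set of Nxpe2. The SBH/y arrays lie at or below 5.62 for Ang and 8.02 for Rnase4, and the SBN/y arrays of both states spread along the line of both Nxpe2 probe sets.

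In the order of RefSeq's gene table, Nxpe2 stands between 2 genes of its own family, and both were lower in SBH/y. By start sites on chromosome 8, Nxpe4 (57619038) and Nxpe1 (57659095) both start above Nxpe2 (57596025 to 57596039). The gene order and the start sites thus differ on the side where Nxpe4 lies, which was not settled here. Nxpe4 differed by -1.02 ± 0.08 with 2 kidneys and -1.18 ± 0.08 with 1 kidney (limma adjusted p = 4.77e-11 and 1.46e-12), Nxpe1 by -0.92 ± 0.08 and -0.76 ± 0.08 (limma adjusted p = 9.8e-11 and 5.5e-09). The group means of Nxpe1, at 3.51 to 4.53, all lay below the lowest array median. Neither gene's signal over background was measured. Neither shared the spread of Nxpe2 among the SBN/y arrays: Nxpe4 read 6.90 to 7.21 with 2 kidneys and Nxpe1 4.12 to 4.65. With group means taken out, r with the first probe set of Nxpe2 was -0.25 for Nxpe4 and 0.15 for Nxpe1. Nxpe3, the family's remaining measured gene, differed by -0.07 ± 0.06 and -0.28 ± 0.06 (limma adjusted p = 0.504 and 0.000873). In SBH/y, Nxpe1 rose after uninephrectomy by 0.26 ± 0.08 and Nxpe3 fell by 0.20 ± 0.06, a log2 difference of -0.20 (limma adjusted p = 0.0301 and 0.0383).

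Ly6i lies in a run of Ly6 genes, of which the nearest measured were lower in SBH/y by far less than Ly6i. Ly6c differed by -0.36 ± 0.06 and -0.45 ± 0.06 (limma adjusted p = 4.91e-05 and 1.2e-06) and Ly6al by -0.51 ± 0.14 and -0.77 ± 0.14 (limma adjusted p = 0.00937 and 8.91e-05). Without the SBN/y array that stood apart, the first Ly6al difference was -0.64 (limma adjusted p = 0.000191). Ly6l, the next gene, gave -0.52 and -0.49 in its brightest probe set, -0.85 and -0.82 in a second and -1.58 and -1.59 in the dimmest, so its probe sets disagreed on size. With group means taken out, Ly6i and Ly6al correlated with r = 0.67, which fell to 0.36 without the SBN/y array that stood apart. Ly6 and Nxpe genes are related in sequence, and how far their probes also bind each other's RNA was not tested. Not all of the run was lower. Ly6e, beyond Ly6c, differed by 0.08 and was higher with 1 kidney (0.18, limma adjusted p = 0.00511). Ly6h, beyond Ly6l, was not called (-0.12 and -0.06). Over the whole Ly6 family, 18 of 30 listed genes were measured. With 2 kidneys 3 were higher and 5 lower in SBH/y, against 11.8% and 9.69% of all genes. With 1 kidney 2 were higher and 6 lower, against 14.9% and 11.9%. The medians were -0.09 and -0.07.

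Beside Mpv17l, Bmerb1 was lower in SBH/y (-0.95 ± 0.10 and -0.73 ± 0.10, limma adjusted p = 1.12e-08 and 1.3e-06), and Pdxdc1 on the other side was not called (-0.24 ± 0.12 and -0.22 ± 0.12). Near Oacyl, the flippase gene Atp8b1 was lower in its brighter probe set (-0.50 ± 0.09 and -0.63 ± 0.09) and not called in the other (-0.11 and -0.10). Of the nearest neighbours of Oacyl, Zfp532 was not called (-0.03 and -0.12) and the signal peptidase gene Sec11c was higher (0.23 and 0.18). Beside Matn1, the lysosomal membrane gene Laptm5 was higher in SBH/y (0.19 ± 0.06 and 0.50 ± 0.06) and the receptor phosphatase gene Ptpru lower (-0.30 ± 0.05 and -0.71 ± 0.05). Ptpru, like Oacyl, gave a called interaction, in the opposite direction (-0.42 ± 0.08, limma adjusted p = 0.00444). Around Dph6 none of the 10 neighbours was called lower in SBH/y in either state in the probe set that stands for the gene, where Zfp770 differed by 0.30 and 0.09 and the homeobox gene Meis2 by 0.20 and 0.04. A second, dimmer probe set of Zfp770 differed by 0.11 with 2 kidneys and was lower with 1 kidney (-0.23, limma adjusted p = 0.0337). Meis2 passed as higher with 2 kidneys (0.25, limma adjusted p = 0.0225) once the SBN/y array that stood apart was left out.

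**Figure D4:**
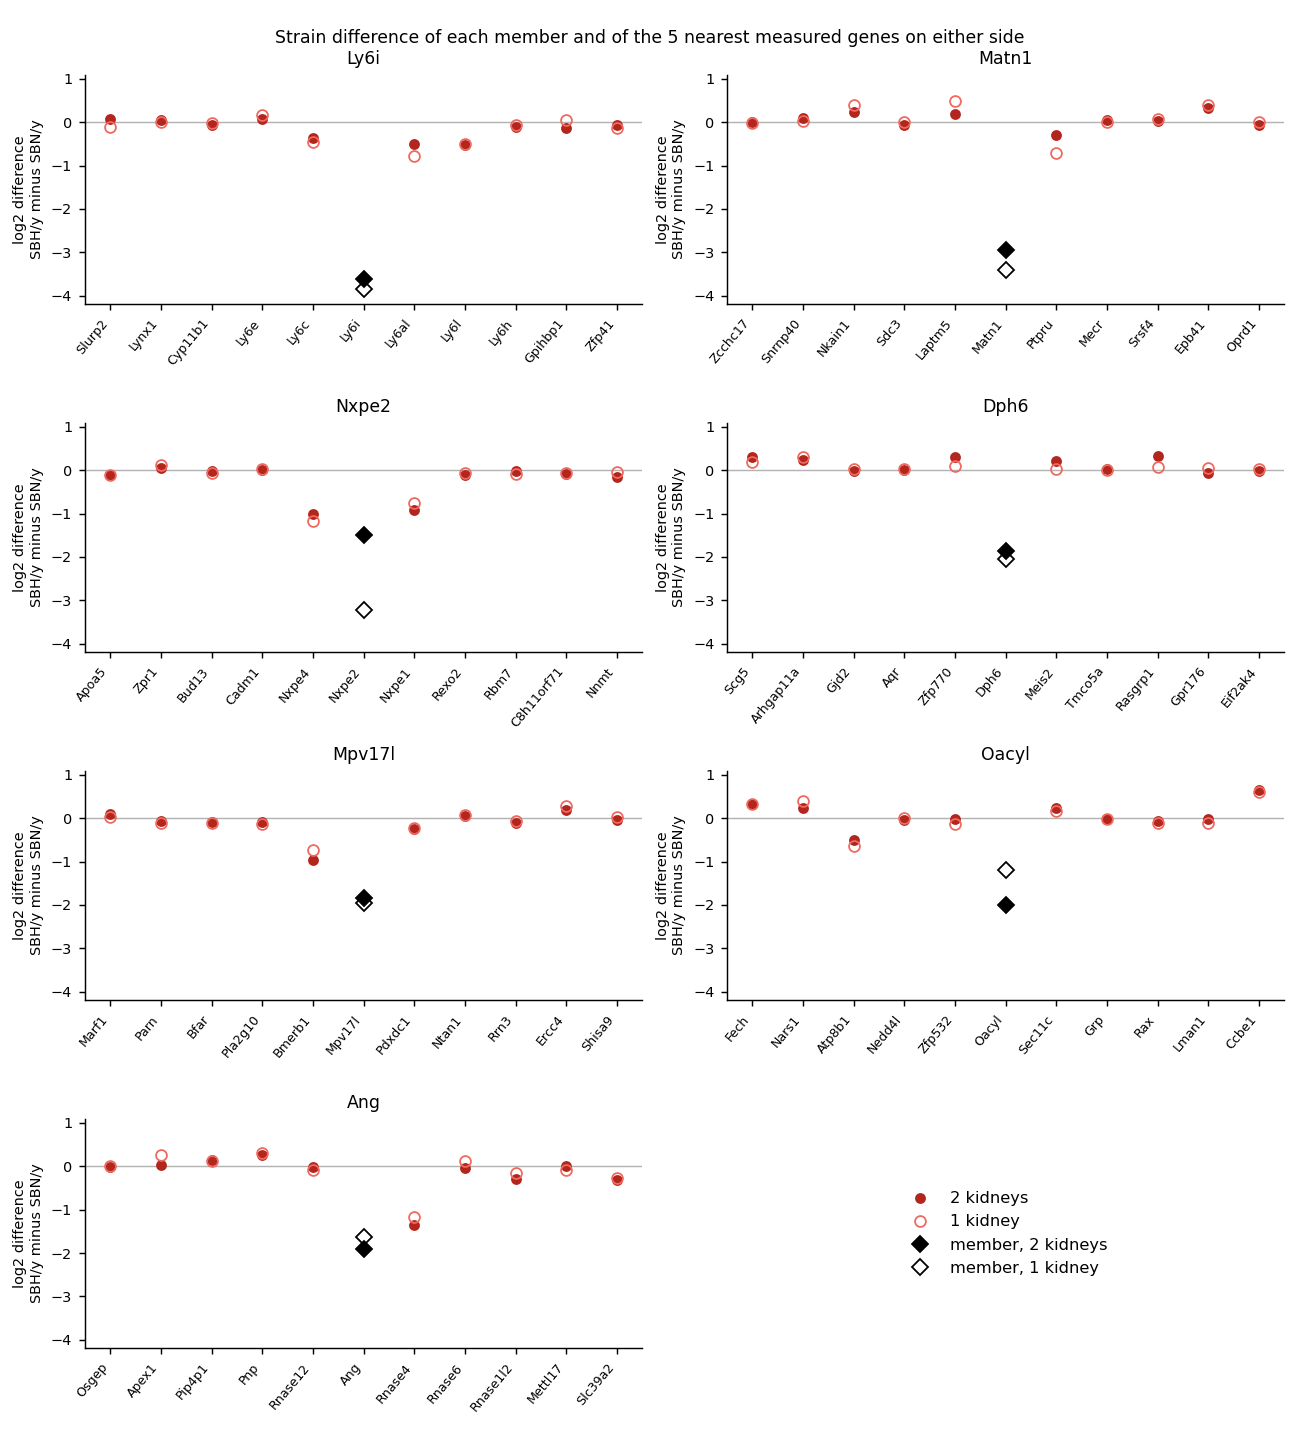
For each of the 7 genes the log2 difference between SBH/y and SBN/y is plotted for the gene (diamonds) and its 5 nearest measured genes on either side in map order (circles), filled with 2 kidneys and open with 1 kidney. Of neighbours called lower by at least 0.5 in both states, Ang has 1 (Rnase4 at -1.36 and -1.18). Nxpe2 has 1 on each side in the plotted order (Nxpe4 and Nxpe1), and Dph6 has none.

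Of 96 measured genes that work with the 7 genes or are related to them, 19 (19.8%) were lower and 12 (12.5%) higher in SBH/y with 2 kidneys, and 20 (20.8%) and 14 (14.6%) with 1 kidney; the shares of all genes are those given for the neighbours. Of the lower genes, 6 in each state are also among the 70 neighbours. In the diphthamide pathway 7 of 8 listed genes were measured; with 2 kidneys Dph5, a methyltransferase of the pathway, was higher by 0.28 and Eef2, which carries diphthamide, by 0.21 (limma adjusted p = 0.00133 and 0.000489), and Dph2 was lower (-0.15, limma adjusted p = 0.0287). With 1 kidney Eef2 was higher by 0.25 and its kinase Eef2k lower (-0.22), while Dph3, Dph7 and Dnajc24 passed in neither state. Of 16 genes of the Mpv17 family and the peroxisome membrane, 3 were higher and 3 lower with 2 kidneys and 3 and 2 with 1 kidney. Mpv17 itself was higher by 0.40 in both states and Pxmp4, a further peroxisomal membrane gene of the list, by 2.39 and 2.35, opposite to Mpv17l, while Pxmp2, a member of the Mpv17 family, was lower (-0.16 and -0.24). Of 16 enzymes that make or remove peroxide and superoxide, 1 was higher and 3 lower with 2 kidneys and 5 and 2 with 1 kidney, among them catalase, Cat, at -0.19 and -0.30 and the peroxiredoxin Prdx5 at -0.16 and -0.24. The superoxide dismutase Sod1 was higher in both states (0.17 and 0.21), and with 1 kidney so were the NADPH oxidase genes Nox4 and Cybb (0.47 and 0.48), Prdx4 (0.17) and Gpx3 (0.11).

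Among 17 acyltransferase genes related to Oacyl by activity, 3 were higher and 3 lower in each state, with Agpat3 at -1.09 and -1.06, Agpat1 at -0.40 and -0.29 and Mboat1 at 0.43 and 0.44. None of the 17 was called in the interaction that called Oacyl, and 1, Gpam, fell after uninephrectomy in SBH/y (-0.38, limma adjusted p = 0.00676). Of 13 genes of the matrilins and of cartilage matrix, the collagen gene Col9a2 was lower in both states (-0.30 and -0.24) and Col11a2 with 1 kidney (-0.20); Col11a1 rose after uninephrectomy in SBH/y by 0.63. Of 6 measured genes on the list of the RNase A family and angiogenin's partners, Rnase4 was called in both states and the other 5 in neither. The ribonuclease inhibitor Rnh1 differed by -0.01 and 0.10 and Plxnb2, an angiogenin receptor, by 0.04 and -0.01. Rnase6 differed by -0.03 and 0.12 and Actn2 by -0.10 and -0.05. The group means of Rnase6 (3.06 to 3.18) and Rnase12 (3.48 to 3.56) lay below the lowest array median. Rnase1l2, a neighbour of Ang that is not on this list, was lower with 2 kidneys (-0.29, limma adjusted p = 0.00397). With 1 kidney Rnase1l2 was not called (-0.15, limma adjusted p = 0.159).

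Segment markers also differed between the strains beside these results. With 2 kidneys 5 of 6 collecting duct, 3 of 5 thick ascending limb and 2 of 4 distal tubule markers were lower in SBH/y, and 2 of 7 proximal tubule markers were higher. Of all genes 9.69% were lower and 11.8% higher. With 1 kidney 4 of 6, 4 of 5 and 2 of 4 of these were lower and 4 of 7 higher, against 11.9% and 14.9% of all genes. With 2 kidneys the mean level of collecting duct markers was 9.0 to 9.12 in SBH/y against 9.19 to 9.50 in SBN/y. That of thick ascending limb markers was 9.59 to 9.74 against 9.92 to 10.11 in the same state. The highest SBN/y level of the collecting duct markers with 2 kidneys was 9.34 when the array that stood apart was left out. With 1 kidney the collecting duct level was 8.81 to 9.10 in SBH/y against 9.16 to 9.48 in SBN/y. The thick ascending limb level was then 9.49 to 9.66 against 10.04 to 10.26. Single markers differed by more: Casr of the thick ascending limb list by -1.12 and -1.37, Calb1 of the distal tubule list by -0.86 and -1.02 and Slc5a12 of the proximal tubule list by 0.92 and 0.82. The part of these markers in the differences of the 7 genes was not tested.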

How the data were processed

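RNA of 28 kidney samples was purified on silica columns and biotin-labelled, per the labels' protocols. The authors deposited 1 table of log2 values for 31099 probe sets; the submitters' processing notes name the scanner software GCOS and RMA, both with a version not given in the sources used here. In RMA, background is corrected, probes are quantile-normalized and probe sets summarised, so differences in total RNA are not seen. No scanner files were used here. After 57 control probe sets were left out, 31042 were tested; 20826 had 1 gene symbol in the platform annotation, 436 several and 9780 none, and symbols were updated in RefSeq's table for GRCr8 (20758 by gene identifier, 3 by accession, 65 kept). The probe set with the highest mean stands for a gene in lists, which gave 14217 genes. limma 3.58.1 in R 4.3.3 (lmFit, eBayes, 1 mean per group) gave each contrast, with Benjamini-Hochberg adjustment over all 31042 probe sets and a threshold of 0.05; the test was tested on simulated data with known changes.

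The 7 genes and the lists were chosen with earlier results of these data known. The text names all 7 genes, up to 4 called genes of each list, lists of 8 or fewer in full, neighbours called and at least 0.5 log2 units apart in both states, the nearest neighbour on each side, and the 3 genes most like each of the 7 over the arrays. Alternatives were other normalizations, a filter on dim probe sets, other variance models, a replicate block, other neighbour numbers and each array left out; leaving out arrays from the correlations was added after the data were seen.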

Additional observations from a re-analysis of the deposited data

Results flagged for a closer look

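In each group of 7 arrays, the gap of the lowest and of the highest value to the next was set against the whole range of the group, over 36 groups of the 9 probe sets. The gap passed Dixon's 95% value of 0.568 in 3 of them, and chance alone does so in about 1 in 20 groups. Ly6i in SBN/y with 2 kidneys had array 2 at 10.2, with the other 6 between 11.4 and 11.8. The first probe set of Mpv17l in SBN/y with 1 kidney had array 2 at 10.4, with the others between 10.6 and 10.8, and the second probe set of Mpv17l in SBH/y with 1 kidney had array 6 at 6.74, with the others between 7.35 and 7.81. In both Mpv17l cases the other probe set of the gene did not set the same array apart.

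For Oacyl the effect of uninephrectomy differed between the strains by 0.81 log2 units in the test of the difference itself (limma adjusted p = 0.0226), with -0.34 in SBN/y and 0.47 in SBH/y.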

How the results depend on the processing

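The strain differences of the 9 probe sets stayed below 0 in all 608 values computed under the alternatives. With the replicate number as a block, Matn1 and Dph6 passed the threshold in SBH/y at -0.51 and -0.18 (limma adjusted p = 0.00864 and 0.0379), and the called probe sets went from 144 to 280 for uninephrectomy in SBN/y and from 439 to 812 for the interaction. Same-numbered arrays of different groups mostly deviated together (42 pairs, r from -0.09 to 0.59, median 0.16, 37 above 0 and 24 over 0.1). The labels do not say what same-numbered arrays share, so the main model does not take the numbers as pairs. What lies behind these correlations was not tested. Without the dimmest 40% of probe sets Matn1 and Dph6 passed in SBH/y (-0.51 and -0.18, limma adjusted p = 0.047 and 0.041), with a trended and robust variance Dph6 did (-0.18, 0.0446), and with only the compared groups in the model the first probe set of Nxpe2 did (-0.40, 0.0107), while the calls in SBN/y fell to 60. With 3 neighbours on each side 26.2% were lower with 2 kidneys, against 17.1% with 5 on each side. With each array left out in turn, the uninephrectomy effect in SBN/y was -0.11 to 0.15 for Ly6i, -0.11 to 0.077 for Matn1, 1.08 to 1.68 for the first probe set of Nxpe2 and -0.094 to 0.0040 for the second of Mpv17l. In SBH/y it was -0.61 to -0.39 for Matn1, -0.054 to 0.025 for the second probe set of Nxpe2, -0.22 to -0.14 for Dph6, -0.18 to -0.14 for the first of Mpv17l and 0.41 to 0.55 for Oacyl. The interaction of the first Nxpe2 probe set was -2.09 to -1.49. Calls ranged from 62 to 167 in SBN/y and from 306 to 870 for the interaction. The cause of these changes was not tested. Signal over background was not measured, which limits what the low values of Nxpe2 in both strains, and of Ang and Matn1 in SBH/y, can show.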

Other observations

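The genes whose values followed each member most closely over the 28 arrays, once the group means were taken out, are given as a description. For each member they are the 3 highest values in a search over the 14217 genes with a name. How high the values of such a search run by themselves was not tested. The arrays share labelling and scanning, and 1 array can decide such a value. Ang went with Phgdh, the first enzyme of serine synthesis (r = 0.78), with the methionine salvage gene Apip (0.77) and with the antiviral membrane gene Bst2 (0.75), each at 0.72 or more whichever array was left out. Phgdh fell after uninephrectomy in SBN/y (-0.35, limma adjusted p = 0.048), where Ang did not pass at -0.38. Nxpe2 went with Fsd1l (0.80), the adaptor gene Sh3bp2 (0.78) and the trefoil gene Tff3 (0.77), at 0.70 or more without any 1 array; all 3 were higher in SBH/y with 2 kidneys (0.87, 0.44 and 1.09), where Nxpe2 was lower. Dph6 went with the demethylase gene Phf2 (0.79), Dpy19l3 (0.78) and the natriuretic peptide receptor gene Npr2 (0.78).

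Oacyl went with Sec14l3 (0.75), Chmp4b (0.70) and Hectd2 (0.70), none of them called in the interaction, Mpv17l with Ddah1, which breaks down methylated arginine (0.75), Vps18 (0.66) and the lipid droplet gene Cideb (0.66), and Matn1 with the thrombin receptor gene F2r (0.65), Ppfibp1 (0.63) and Dcdc2 (0.62). With any 1 array left out, values went down to 0.64 for Oacyl, 0.54 for Mpv17l, 0.49 for Matn1 and 0.69 for Dph6. Ly6i went with the amino acid transporter gene Slc7a12 (0.84) and the acetyltransferase genes Nat8f1 (0.83) and Nat8b (0.83). For Ly6i the relation rests on array 2 of SBN/y with 2 kidneys: without it the values were 0.42, 0.39 and 0.47.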
